A study of Oryza sativa with 12 samples.

Results

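The genes described here code for enzymes that make proline and trehalose, small molecules that plants build up when water is short. They were chosen by name: *P5CS1*, *P5CS2*, *TPP1*, *TPP2*, *TPP3*, *TPP7* and *TPS1*, by symbol or synonym, among the probe sets annotated to 1 gene. Of these 7 names, 6 were matched, to 10 probe sets, among 17905 genes with such a probe set and 57381 probe sets in all. *P5CS2* had 4 probe sets, *TPP7* had 2, and *P5CS1*, *TPP1*, *TPP2* and *TPP3* had 1 each. *TPS1* was not matched and has no value here. The name TPP2 is also a synonym of another gene, *TPPII*, whose probe sets were set apart.

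Affymetrix rice genome arrays, 12 in 4 groups of 3, carried RNA from the youngest fully expanded leaf of plants of cultivar Dongjin. The groups were *osnadk1* at day 15 of drought, *osnadk1* under normal growth (day 0), WT at day 15 of drought and WT under normal growth. The *osnadk1* mutant is a single T-DNA insertion line that has lost OsNADK1, an NAD kinase, which makes NADP from NAD. Plants were 2.5 months old and mutant and WT plants shared pots. Soil moisture was 8.5% at day 15 and 47.3% at day 0, so drought and 15 days of age cannot be told apart. The WT arrays are labelled a re-analysis. The labels call the replicates biological without saying which plants or pots stand behind each, so the spread behind each p-value is that of these arrays and may be technical.

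Proline is made from glutamate, and P5CS (delta-1-pyrroline-5-carboxylate synthetase) catalyses the first and rate-limiting step, drawing on NADPH. Trehalose is made by trehalose-6-phosphate synthase (TPS), which joins UDP-glucose to glucose-6-phosphate, and trehalose-6-phosphate phosphatase (TPP), which then removes the phosphate. Proline is a common osmolyte of droughted leaves, whereas trehalose is scarce in most plants and its phosphate ester acts as a sugar signal. Transcripts of *P5CS* genes are well known to rise with drought and abscisic acid, and rice *TPP1* and *TPP2* are known as genes that respond to cold and other stresses.

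All values are log2 MAS5 signals as deposited. Array medians lay between 5.08 and 5.43 and served as the background level in place of detection calls. Each of the 6 *osnadk1* arrays gave 3.96 to 5.65 for *OsNADK1* and each of the 6 WT arrays 9.43 to 10.27. The leaf markers were high on 9 of 10 probe sets (*CAB2R* 14.11 to 15.46, *RCA* 11.55 to 15.49, *RBCS* 11.30 to 14.72), and a further probe set of *RBCS* was at 1.33 to 6.06. The seed gene *GLUA1* and the anther gene *RTS* lay below the array median throughout, whereas the seed names *GLUA2* and *GLB1* (6.67 to 12.44) and the root gene *LSI1* (7.59 to 9.42) did not. From their label prefixes the arrays fall into 2 sets of 6, called job A and job B, each holding all 4 groups. That these were hybridisation jobs is inferred. The 3 job A arrays of normal growth (*osnadk1* replicates 1 and 2 and WT replicate 1) stood apart from the other 9, with the morning clock gene *CCA1* (1 of 2 probe sets) at 13.02 to 13.79 against 7.31 to 8.63. The comparisons of groups that use them are therefore also given without them. *osnadk1* under normal growth is then 1 array (replicate 3, job B), and each such value for that group rests on it. For the genotypes under normal growth the estimates are then those of job B alone. The filter kept the 32110 probe sets at or above the array median on 3 arrays or more, among them 7 of the 10 described here. limma was fitted on all 32110, with Benjamini-Hochberg adjustment over all of them and a threshold of 0.05.

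*P5CS1*, the P5CS gene of rice best known for its induction by stress, was far above the array medians in all leaves. In *osnadk1* it gave 11.29, 11.08 and 11.53 under drought, against 12.11, 11.87 and 10.99 under normal growth. In WT it gave 11.38, 11.80 and 12.17 under drought, against 11.47, 11.09 and 11.11 under normal growth. The groups overlapped in every pairing. Its mean in *osnadk1* was 11.30 ± 0.23 under drought and 11.66 ± 0.59 under normal growth, and in WT it was 11.78 ± 0.39 under drought and 11.22 ± 0.21 under normal growth (SD, n = 3 each). The widest spread was that of *osnadk1* under normal growth, where the 2 job A arrays were high and the job B array low.

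*P5CS2*, the other P5CS gene, was covered by 4 probe sets that did not move together, numbered here as in the plots. The first lay between 7.17 and 8.35 over all arrays, and the second between 5.29 and 6.89, close to the array medians. The third gave 4.73, 5.11 and 3.87 in *osnadk1* under drought, against 6.10, 4.84 and 6.04 in *osnadk1* under normal growth. In WT it gave 5.13, 6.23 and 5.79 under drought, against 6.12, 7.13 and 7.59 under normal growth. On the third probe set every *osnadk1* array was below every WT array within each condition, and its signal reached the array median on only 7 of 12 arrays. Over the 12 arrays the Pearson correlation of the third probe set was 0.16 with the first and -0.05 with the second, and that of the first with the second was 0.29, as a description over arrays that share groups and jobs. The fourth lay between 1.35 and 4.99, below the median of every array, and was not tested.

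*TPP1*, a trehalose-6-phosphate phosphatase, gave 8.88, 8.76 and 9.31 in *osnadk1* under drought, against 7.63, 6.98 and 7.92 under normal growth. In WT it gave 8.84, 9.28 and 8.44 under drought, against 6.28, 9.78 and 9.15 under normal growth. In *osnadk1* every droughted array was above every array of normal growth. In WT the single job A array of normal growth was the lowest of the 12 and the 2 job B arrays were among the 4 highest, which gave this group an SD of 1.86 around its mean of 8.40.

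*TPP2*, a phosphatase of the same family, gave 6.87, 6.85 and 5.54 in *osnadk1* under drought, against 7.21, 6.97 and 6.53 under normal growth. In WT it gave 7.05, 6.94 and 7.40 under drought, against 6.63, 6.34 and 5.63 under normal growth. The droughted WT arrays were above all droughted *osnadk1* arrays and above all WT arrays of normal growth.

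*TPP7*, the phosphatase known in rice for anaerobic germination, gave 10.14, 10.61 and 11.01 in *osnadk1* under drought, against 10.51, 10.47 and 10.48 under normal growth. In WT it gave 10.52, 11.03 and 10.41 under drought, against 11.39, 11.63 and 11.32 under normal growth. WT leaves under normal growth thus stood above all other arrays of this probe set, in both jobs. The suffix of the probe set's name (s_at) marks probes that may match more than 1 transcript. The other *TPP7* probe set (0.77 to 5.58) reached the median of 1 array, and *TPP3* (0.39 to 4.50) that of none, so neither was tested.

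**Figure D1:**
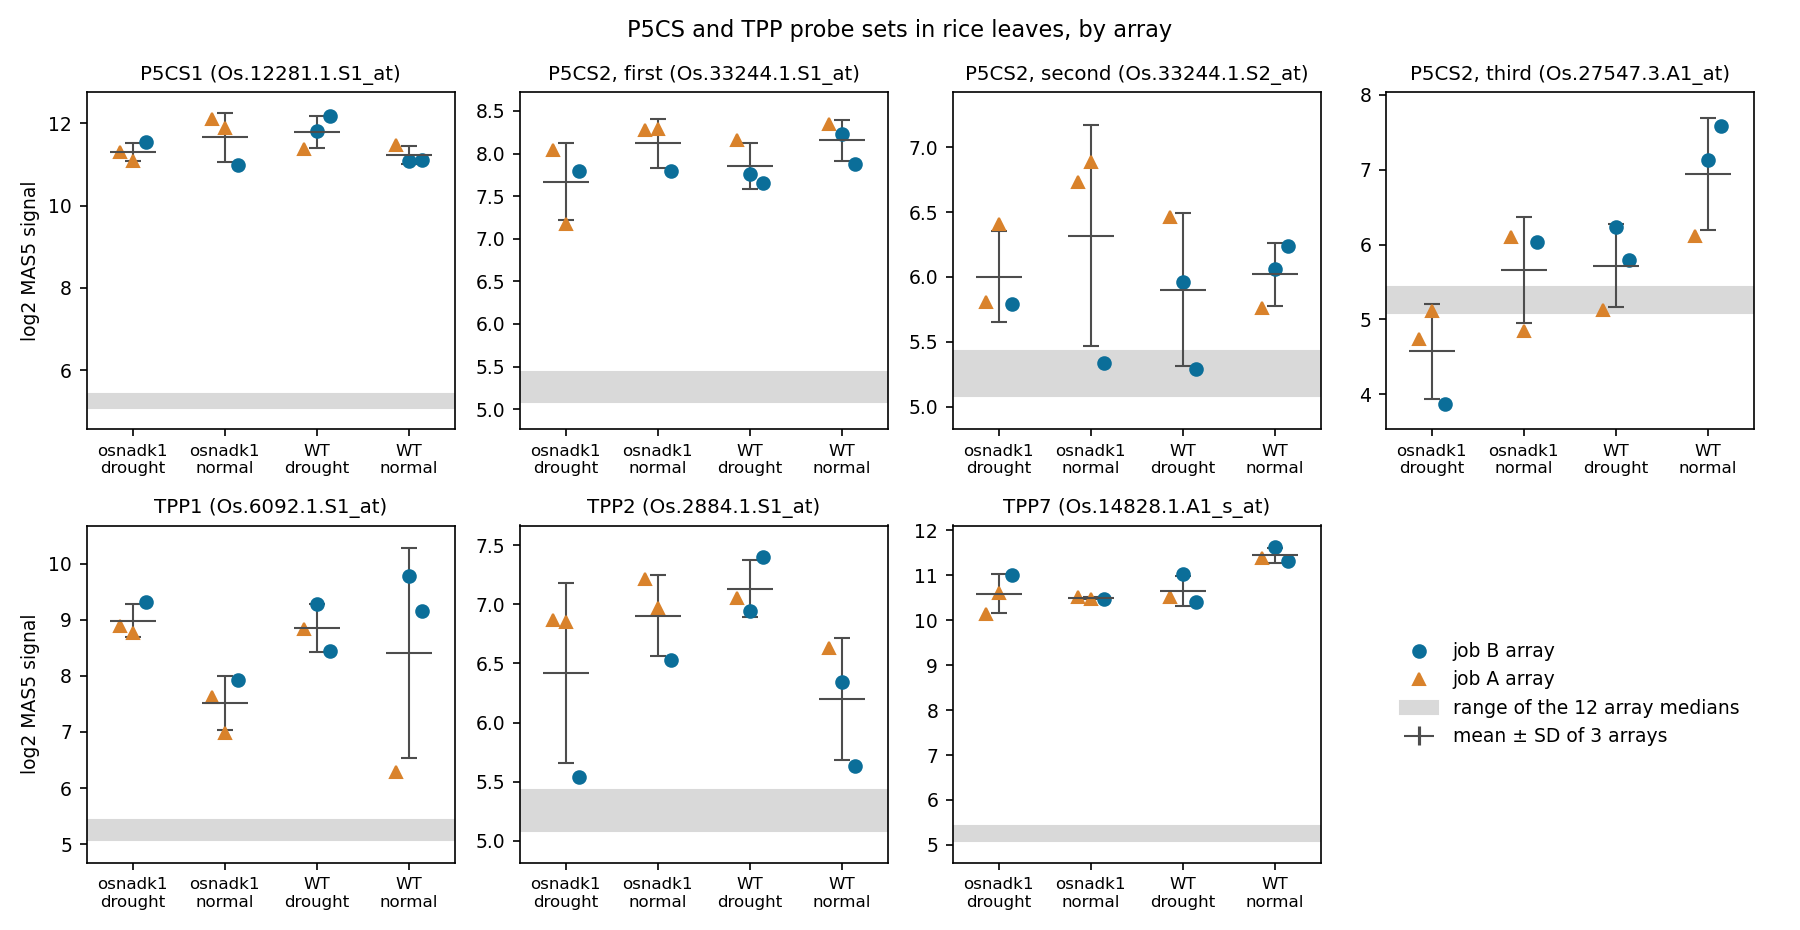
Log2 MAS5 signal (y axis, own range in each panel) of the 7 tested P5CS and TPP probe sets in the 4 groups (x axis), with a circle for each job B array, a triangle for each job A array and the mean ± SD of 3 arrays. TPP7 in WT under normal growth, at 11.32 to 11.63, lies above every other array, and the third probe set of P5CS2 lies in the grey band of array medians or below it in osnadk1 under drought.

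The comparison of genotypes addressed whether losing OsNADK1 changed the transcripts of these genes in droughted and in watered leaves. Under drought, the 7 tested probe sets had a median difference of -0.19 log2 units (*osnadk1* minus WT), against 0.01 over all probe sets tested. None passed (limma, adjusted p under 0.05), where 0.0623% of all probe sets did, and none had an unadjusted p under 0.05, where 5.28% did. The genotypes had no overlap between arrays for 2 of the 7, *P5CS2* (the third probe set) and *TPP2*, where 15.2% of all probe sets showed this. *TPP2* differed by -0.70 ± 0.40 (± SE; limma, adjusted p = 0.997), *P5CS1* by -0.49 ± 0.28 (limma, adjusted p = 0.998) and *TPP7* by -0.07 ± 0.22 (limma, adjusted p = 0.999). For the third *P5CS2* probe set all 3 *osnadk1* arrays lay below their array medians, so its fold change there has no measured value. The WT mean was 1.34-fold above those medians, although WT drought replicate 1 was itself below the median of its array (limma, adjusted p = 0.958).

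Under normal growth the largest of these differences relative to its error was that of *TPP7*, at 10.49 ± 0.02 in *osnadk1* against 11.45 ± 0.16 in WT (log2 signal, SD, n = 3 each). This is a 1.95-fold lower signal in *osnadk1*, or -0.96 ± 0.22 log2 units (limma, adjusted p = 0.222). None of the 7 probe sets passed, where 0.146% of all did. *TPP7* and *P5CS2* (the third probe set, -1.29 ± 0.53, limma, adjusted p = 0.794) had an unadjusted p under 0.05 (0.00111 and 0.0348 in limma), 2 of 7 where 6.04% of all probe sets had one. The same 2 probe sets were the ones without overlap, where 7.81% of all probe sets showed none. The median of the 7 was -0.04, as it was over all probe sets. *TPP7* differed by -0.99 ± 0.36 with the 3 normal-growth arrays of job A left out (limma, adjusted p = 0.344), and over 25 other settings between -1.03 and -0.87. With those 3 arrays left out the third *P5CS2* probe set differed by -1.32 ± 0.67 and *TPP1* by -1.54 ± 0.39 (limma, adjusted p = 0.544 and 0.176). *TPP1* differed by -0.89 ± 0.71 (limma, adjusted p = 0.865), and without WT normal replicate 1 by -1.95 ± 0.34 (limma, adjusted p = 0.0481), the only 1 of 25 settings in which it passed, where 0.411% of all probe sets did.

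The comparison of drought with normal growth asked whether the osmolyte genes responded to 15 days without water. In *osnadk1* the largest value was that of *TPP1*, 2.77-fold higher under drought (1.47 ± 0.71 log2 units, limma, adjusted p = 0.415), and it was 1.06 ± 0.37 with the 3 normal-growth arrays of job A left out (limma, adjusted p = 0.453). None of the 7 passed, where 0% of all probe sets did, and none had an unadjusted p under 0.05, where 12.4% of all did. *TPP1* alone had no overlap, where 16.9% of all probe sets showed none. *P5CS1* differed by -0.36 ± 0.28 (limma, adjusted p = 0.576). With the 3 normal-growth arrays of job A left out it differed by 0.30, against *osnadk1* normal replicate 3 alone.

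In WT, *TPP7* differed by -0.79 ± 0.22 (limma, adjusted p = 0.252), *TPP2* by 0.93 ± 0.40 (limma, adjusted p = 0.491) and *P5CS2* (the third probe set) by -1.23 ± 0.53 (limma, adjusted p = 0.492), drought minus normal growth. These 3 of 7 had an unadjusted p under 0.05, where 9.76% of all probe sets had one, and none passed after adjustment, where 0.00623% of all did. *TPP7* and *TPP2* had no overlap between conditions, 2 of 7 where 17.9% of all probe sets had none. With a job by treatment block *TPP7* passed at -0.86 ± 0.19 (limma, adjusted p = 0.0193), a setting in which 9.96% of all probe sets did. *P5CS1* differed by 0.56 ± 0.28 (limma, adjusted p = 0.556). *TPP1* differed by 0.45 ± 0.71 (limma, adjusted p = 0.878). With the 3 normal-growth arrays of job A left out the values were -0.82 ± 0.26 for *TPP7*, 1.15 ± 0.45 for *TPP2*, -1.64 ± 0.50 for the third *P5CS2* probe set, 0.68 ± 0.22 for *P5CS1* and -0.61 ± 0.29 for *TPP1*, and none passed (limma, adjusted p = 0.153 to 0.348), where 1.41% of all probe sets did. The median over the 7 was -0.36 in *osnadk1* and -0.12 in WT, against 0.09 and 0.02 over all probe sets.

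The genotype by drought interaction, the drought response of *osnadk1* minus that of WT, tested whether the responses differed. *TPP2* had an interaction of -1.41 ± 0.57, *P5CS1* of -0.92 ± 0.40 and *TPP7* of 0.89 ± 0.31, each with an adjusted p of 0.975 in limma. These 3 of 7 had an unadjusted p under 0.05 (0.0311, 0.0432 and 0.0151), where 3.96% of all probe sets had one. None passed after adjustment, where 0% of all probe sets did. With the 3 normal-growth arrays of job A left out the interaction was -1.26 ± 0.73 for *TPP2*, -0.38 ± 0.35 for *P5CS1* and 0.92 ± 0.43 for *TPP7*. With a job by treatment block it was -1.41 ± 0.51 for *TPP2*, -0.53 ± 0.23 for *P5CS1* and 1.02 ± 0.28 for *TPP7* (limma, adjusted p = 0.623, 0.694 and 0.51). The interaction and the single comparisons rest on the same arrays.

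**Figure D2:**
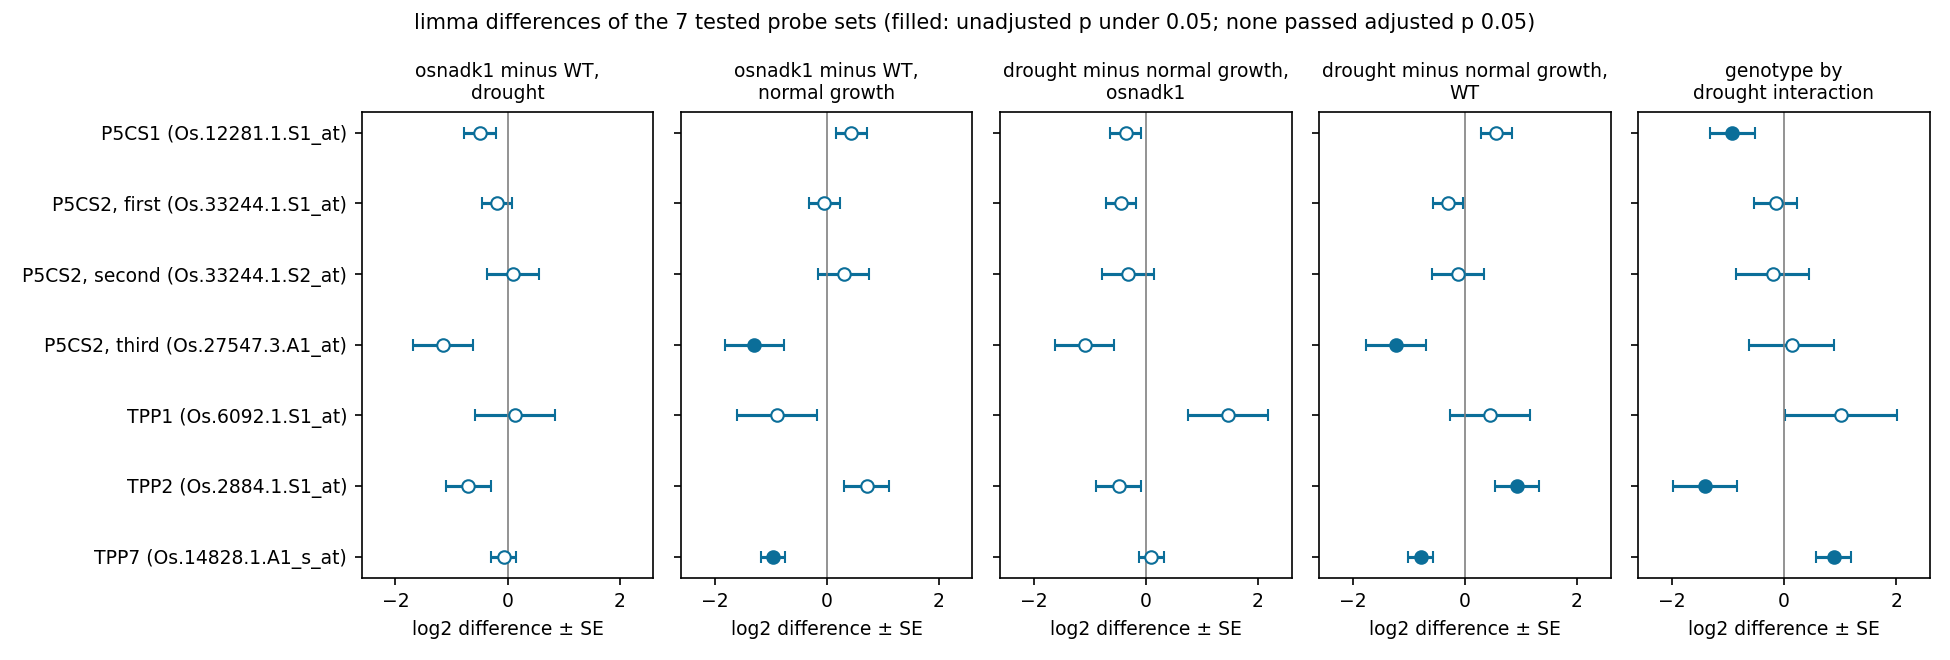
Log2 difference ± SE from limma (x axis) for the 7 tested probe sets (y axis) in the 5 comparisons, with filled circles where the unadjusted p was under 0.05. TPP7 is filled in 3 panels (osnadk1 minus WT under normal growth, drought in WT and the interaction), and no circle passed an adjusted p of 0.05; the third P5CS2 probe set lay below the array median on every osnadk1 array under drought, so its differences with that group are not measured sizes.

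Each job held all 4 groups, so the genotypes were also compared within each job alone. In each condition *osnadk1* replicates 1 and 2 and WT replicate 1 were in job A, and the other replicates in job B. The main group comparisons had no job term, so genotype and job are partly mixed in them. With a job by treatment block *P5CS1* differed by -0.33 ± 0.16 under drought and 0.21 ± 0.16 under normal growth (limma, adjusted p = 0.613 and 0.772). Within a job an arm can hold 1 array, which is then assumed to vary like the other groups. Under normal growth the job B estimates are the same as those without the normal-growth arrays of job A, so they are no second check. Under normal growth *TPP7* differed by -0.99 ± 0.26 in job B (limma, adjusted p = 0.146) and by -0.91 ± 0.21 in job A (limma, adjusted p = 0.0693). *TPP1* had opposite signs, at -1.54 ± 0.40 in job B and 1.02 ± 0.32 in job A (limma, adjusted p = 0.137 and 0.144). *P5CS1* was at -0.11 ± 0.17 in job B and 0.52 ± 0.16 in job A (limma, adjusted p = 0.822 and 0.142). Under drought *TPP2* was at -1.62 ± 0.48 in job B and -0.18 ± 0.33 in job A. None of the 7 probe sets passed. Of all probe sets, 2.03% passed in job B and 3.77% in job A under normal growth, and 0.0436% in job B and 0.383% in job A under drought. Whether genotype differences differed between jobs was not tested.

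**Figure D3:**
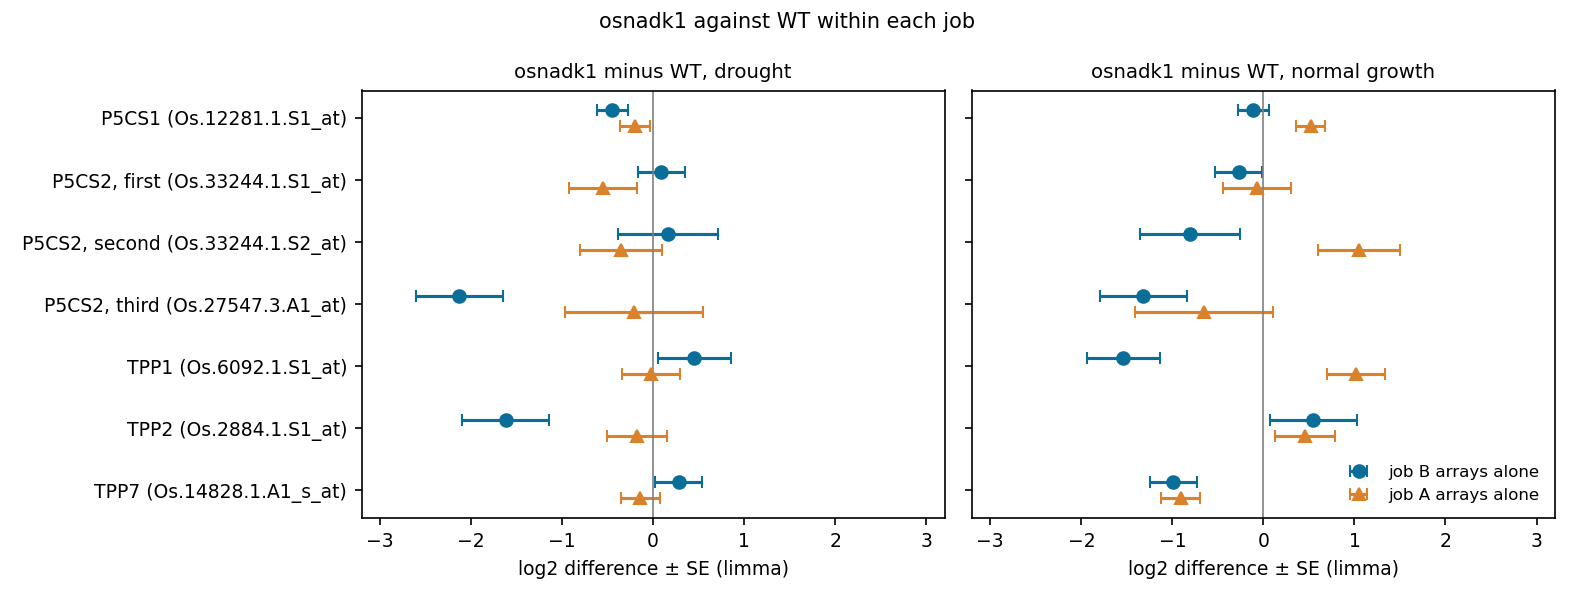
Log2 difference of osnadk1 minus WT ± SE from limma (x axis) for the 7 tested probe sets (y axis), under drought and under normal growth, with circles for the job B arrays alone and triangles for the job A arrays alone. TPP7 under normal growth is at -0.99 and -0.91 in the 2 jobs, whereas TPP1 is at -1.54 and 1.02; under drought the third P5CS2 probe set lay below the array median on every osnadk1 array, so its points there are not measured sizes.

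The drought response of *P5CS1* had opposite signs in the 2 jobs. In job B it gave 11.53 (*osnadk1*), 11.80 and 12.17 (WT) under drought, against 10.99 (*osnadk1*), 11.09 and 11.11 (WT) under normal growth. In job A it gave 11.29 and 11.08 (*osnadk1*) and 11.38 (WT) under drought, against 12.11 and 11.87 (*osnadk1*) and 11.47 (WT) under normal growth. Every droughted array was above those of normal growth in job B and below them in job A, where 21.6% of all probe sets in job B and 37.4% in job A had no overlap, in either direction. A further limma fit had terms for genotype, treatment, genotype by treatment, job and job by treatment, and each drought effect was the mean over the genotypes. In this fit drought minus normal growth was 0.68 ± 0.16 in job B (adjusted p = 0.0778) and -0.48 ± 0.16 in job A (adjusted p = 0.0532). The difference between the jobs, 1.16 ± 0.23, passed (limma, adjusted p = 0.00902). It was the only 1 of the 7 probe sets to do so, where 13.2% of all did. Without WT drought replicate 1 the difference was 1.03 ± 0.29 (limma, adjusted p = 0.0639). In the single genotypes within a job, *P5CS1* differed by 0.88 ± 0.14 in WT in job B (limma, adjusted p = 0.0243) and by -0.81 ± 0.13 in *osnadk1* in job A (limma, adjusted p = 0.00697), and these passed where 4.73% of all probe sets did in WT in job B and 22.7% in *osnadk1* in job A. It differed by -0.09 in WT in job A and by 0.54 in *osnadk1* in job B, each 1 array against 1. The negative value of job A thus came mainly from the *osnadk1* arrays. Whether the difference between jobs depended on genotype was not tested.

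*TPP1* rose under drought in job A, by 1.78 ± 0.48 log2 units (limma, adjusted p = 0.0214), the only 1 of the 7 to pass where 24.6% of all probe sets did. It gave 8.88 and 8.76 (*osnadk1*) and 8.84 (WT) under drought there, against 7.63 and 6.98 (*osnadk1*) and 6.28 (WT) under normal growth. The value was 0.72 ± 0.36 without WT normal replicate 1 (limma, adjusted p = 0.185), 1.59 ± 0.66 without WT drought replicate 1 (limma, adjusted p = 0.153) and 1.79 ± 0.56 without *osnadk1* drought replicate 1 (limma, adjusted p = 0.0557). In job B it was 0.14 ± 0.48 (limma, adjusted p = 0.95), and none of the 7 probe sets passed in job B, where 1.32% of all did. The difference between the jobs was -1.64 ± 0.70 (limma, adjusted p = 0.165). It passed at -2.92 ± 0.49 without *osnadk1* normal replicate 3 (limma, adjusted p = 0.00387, where 16.1% of all probe sets passed), and it was -0.36 ± 0.49 without WT normal replicate 1 (limma, adjusted p = 0.669). Within job A alone *TPP1* passed in *osnadk1* (1.51 ± 0.27, limma, adjusted p = 0.00862), where 22.7% of all probe sets did. In WT it differed by 2.56 there, with 1 array in each condition. Within job B alone it was 1.39 ± 0.46 in *osnadk1* (limma, adjusted p = 0.206, where 2.09% of all probe sets passed) and -0.60 ± 0.32 in WT (limma, adjusted p = 0.36).

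Between the jobs under normal growth, arrays did not overlap for 4 of the 7 probe sets, where 38.3% of all probe sets showed this. *P5CS1*, *TPP2* and *P5CS2* (the first probe set) were lower in job B than in job A, and *TPP1* was higher. Under drought this held for *P5CS1* alone, which was higher in job B, where 23.6% of all probe sets had no overlap. Some other genes moved with these splits. The dehydrin gene *RAB21*, a marker of drought and abscisic acid, gave, on 1 of its 2 probe sets, 9.82 (*osnadk1*), 11.77 and 13.03 (WT) under drought in job B, and 1.98 and 2.20 (*osnadk1*) and 6.85 (WT) under drought in job A. *RAB21* stayed at 0.92 to 2.03 under normal growth there. Other markers varied. *RAB16C* averaged 9.06 under drought and 5.47 under normal growth in job A, against 9.59 and 8.28 in job B. *PP2C68* averaged 8.45 and 9.63 in job A, against 10.08 and 8.20 in job B. Of 14 marker probe sets tested, 5 passed as higher and 1 as lower under drought in job A (limma, adjusted p under 0.05). In job B 6 passed as higher. Of all probe sets, 24.6% passed in job A and 1.32% in job B. The mean of 16 probe sets of 13 drought marker genes was 8.51 to 9.92 on the droughted arrays of job B, 5.95 to 6.49 on its arrays of normal growth, 6.07 to 7.21 on the droughted arrays of job A and 5.16 to 6.07 on its arrays of normal growth. The 3 arrays of normal growth in job A, those with *CCA1* at 13.02 to 13.79, held the 3 lowest values of *TPP1*. The mean of 10 leaf marker probe sets was 13.48 to 13.82 on these arrays and 12.20 to 12.87 on the other 9. Of these 10, the 4 probe sets of *RCA* did not overlap (14.97 to 15.49 on these arrays and 11.55 to 13.73 on the other 9), whereas those of *RBCS* and *CAB2R* did. The part of drought strength, time of sampling or leaf state in the values of *P5CS1* and *TPP1* was not tested.

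**Figure D4:**
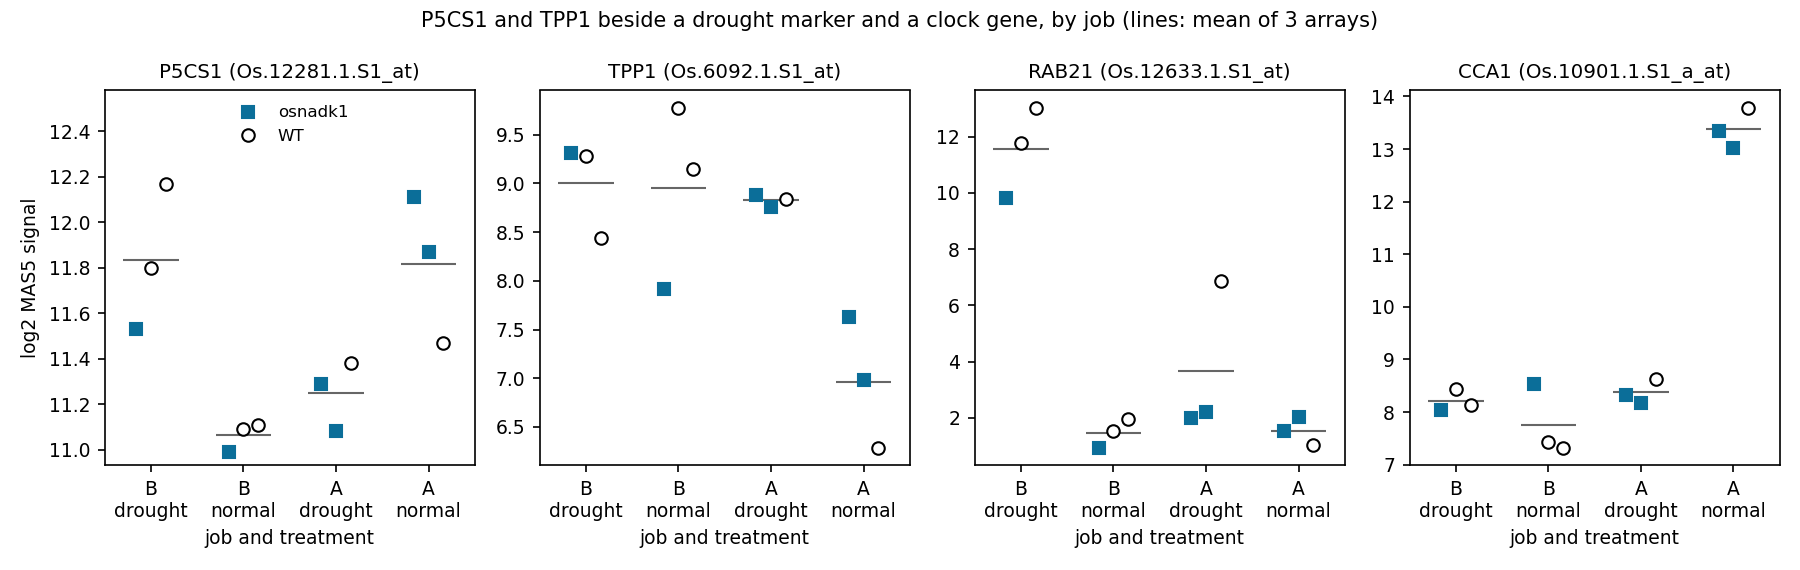
Log2 MAS5 signal (y axis, own range in each panel) of P5CS1, TPP1, the dehydrin gene RAB21 and the clock gene CCA1 by job and treatment (x axis), with squares for osnadk1 arrays, open circles for WT arrays and lines for the mean of 3 arrays. P5CS1 under drought is above normal growth in job B and below it in job A, TPP1 is lowest and CCA1 highest on the normal-growth arrays of job A, and RAB21 is at 9.82 or above only on the droughted arrays of job B.

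The lists of related genes held 8 further genes with 9 probe sets: *OAT*, ornithine aminotransferase, which leads from ornithine towards proline, the proline transporter *PROT1*, *TPP4*, *TPP6*, *TPP9* and *TPP10*, and *BADH1* and *BADH2*, betaine aldehyde dehydrogenases, of which *BADH2* is known as the fragrance gene. With the members, the 8 proline, 25 trehalose and 6 other osmolyte names searched gave 4, 8 and 2 genes. No TPS, trehalase, pyrroline-5-carboxylate reductase or gene of proline breakdown was matched, so these steps have no value here. *TPP6* lay below the median of every array and was not tested. None of the 8 tested probe sets passed in the comparisons of genotype or of drought within a genotype, or in the interaction, where 0% to 0.146% of all probe sets did. The only unadjusted p under 0.05 there was that of *PROT1* in WT, at -0.46 ± 0.16 for drought minus normal growth (limma, adjusted p = 0.361). Between jobs, *BADH2* rose under drought in job A by 0.54 ± 0.13 (limma, adjusted p = 0.0149), where 24.6% of all probe sets passed, and was at -0.04 ± 0.13 in job B (limma, adjusted p = 0.947). It gave 10.96 and 10.92 (*osnadk1*) and 11.10 (WT) under drought in job A, against 10.56 and 10.61 (*osnadk1*) and 10.24 (WT) under normal growth, where the 3 lowest of its 12 values lay. *BADH1* passed in neither job, but its droughted arrays lay above those of normal growth in job A (10.91 to 10.97 against 10.47 to 10.75) and job B (11.17 to 11.42 against 10.80 to 11.06). No overlap, in either direction, was seen for 37.4% of all probe sets in job A and 21.6% in job B. *PROT1* was at -0.56 ± 0.12 in job B (limma, adjusted p = 0.0639) and -0.12 ± 0.12 in job A (limma, adjusted p = 0.529).

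Across the 12 arrays the highest Pearson correlation between different genes was 0.58, of *P5CS2* (the third probe set) with *TPP7*, then 0.54, of *P5CS1* with *TPP2*, and the lowest was -0.60, of *TPP2* with *TPP7*. Among 2661 probe sets of 1 named gene, those most like *P5CS1* were *OsCIPK11*, a CBL-interacting protein kinase (r = 0.93), and *PP2C68*, a protein phosphatase 2C (r = 0.91). Those most like *TPP1* were *BG1* (r = 0.95) and *NRAMP6*, a metal transporter (r = 0.94). For *TPP2* both were probe sets of the zinc finger gene *OsC3H11* (r = 0.86 and 0.80), and for *TPP7* they were *OsSAP9* (r = 0.79) and *OsJAZ4* (r = 0.78). For *P5CS2*, the first probe set was most like *OsPDR23* (r = 0.86) and *OsPP2C01* (r = 0.83), the second like *OsUGE-3* (r = 0.85) and *Roc2* (r = 0.84), and the third like *OsGER6* (r = 0.81) and *OsRPN7*, a proteasome subunit (r = 0.80). These values describe arrays that share groups and jobs, and were picked as the highest of many.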

How the data were processed

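Leaf RNA was hybridised to 12 arrays. The authors deposited log2 signals. The submitters' processing notes name MAS5, without a version, and scaling per array to 1 target shows in the linear values, whose mean after trimming 2% from either end was 500.07 to 500.08. No further normalization was applied, and 123 control probe sets were left out. Of 57381 probe sets, 22436 had 1 gene, 95 several and 34850 none in the annotation given. The number of arrays limits precision.

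limma 3.58.1 (R 4.3.3, data.table version 1.17.8) was fitted on all 12 arrays with 4 group means (8 residual degrees of freedom) and a mean-variance trend, and again with job and job by treatment. The methods give thresholds for the arrays without naming a test there, and a general statement names the Tukey method and analysis of variance, which may cover them. The fits were run on simulated data with known changes and independent noise on each array. Deviations shared by the arrays of a job were not simulated, so that run cannot show how the fits behave with them.

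Named are all members, related genes past the threshold, the 2 probe sets most like each member, and marker genes beside a result. The other related genes named fall outside this rule and were named after their values were seen. Members and lists were chosen with earlier results of these data known. Lists were matched by symbol, and the knockout check used the probe set the study assigns. Job labels come from prefixes of array names. Replicate numbers shared by groups were checked for pairing. Alternatives were other normalizations, filters, floors, a pseudocount of 16, no variance trend, job or replicate blocks, single jobs, the 2 groups compared alone and each array left out. Promoter motifs and sequences were not analysed here.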

Additional observations from a re-analysis of the deposited data

Results flagged for a closer look

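The drought response of *P5CS1* differed between the 2 jobs by 1.16 ± 0.23 log2 units, job B minus job A, by the test of the difference itself (limma, adjusted p = 0.00902), where 13.2% of all probe sets passed. Without WT drought replicate 1 the difference did not pass (limma, adjusted p = 0.0639). The response was 0.68 in job B and -0.48 in job A, with 6 of 6 arrays of job B and 6 of 6 of job A on the side of their condition that gives these signs. Neither response passed by itself (limma, adjusted p = 0.0778 in job B and 0.0532 in job A). In job A *P5CS1* differed by -0.81 ± 0.13 in *osnadk1* and by -0.09 in WT, where 1 array stood in each condition. Of all probe sets, 21.6% in job B and 37.4% in job A had no overlap between conditions, in either direction. On the droughted arrays *RAB21* was at 9.82 to 13.03 in job B and 1.98 to 6.85 in job A, and on the arrays of normal growth *CCA1* was at 7.31 to 8.53 in job B and 13.02 to 13.79 in job A. What part the states marked by these 2 genes had in the difference was not tested.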

How the results depend on the processing

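The 7 tested probe sets were refitted under up to 25 other settings each, which gave 1267 single values. Of these, 12 passed the threshold where the value reported had not, 5 no longer passed, and no called value changed sign, while 72 values that passed under neither setting had the opposite sign. In the 5 comparisons of groups the number of members called was 0. It was 1 for drought in WT with a job by treatment block (*TPP7*, where 9.96% of all probe sets passed) and with the job B arrays only (*P5CS1*, 4.73%), and 2 for drought in *osnadk1* with the job A arrays only (*P5CS1* and *TPP1*, 22.7%). With the job A arrays only, *TPP1* in WT differed by 2.56. That value is counted among the 12 above but rests on 1 array in each condition. Leaving out 1 array gave 0 to 1 for *osnadk1* minus WT under normal growth, where *TPP1* passed without WT normal replicate 1 (0.411% of all probe sets), and 0 in the other 4. For drought in job A the number, 1 as reported, was 0 without the variance trend (*TPP1*, adjusted p = 0.0534, where 21.3% of all passed) and 0 to 3 with 1 array left out, where 15.1% to 30.5% of all passed. It was 0 to 1 for drought in job B, where *P5CS1* passed without WT normal replicate 1 (4.18% of all), and 0 to 2 for the difference between jobs, where 8.39% to 17.6% of all passed. The cause of these changes was not tested. The deviations of same-numbered arrays of different groups had correlations of -0.27 to 0.32. These were -0.03 to 0.32 for arrays of 1 job and -0.27 to 0.01 across jobs, so the check cannot tell pairing from job. The main fits used no pairing. With the replicate block the drought response of *P5CS1* differed between jobs by 1.16 (limma, adjusted p = 0.0313), where 9.9% of all probe sets passed. *TPP1* under drought in job A differed by 1.78 with this block (limma, adjusted p = 0.027), where 20.5% of all passed. No count of members called changed with it. Signals near the array median limit the third *P5CS2* probe set.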
